A study of Mus musculus with 12 samples.

Results

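*Fos*, *Jun*, *Klf4* and *Ets2* are 4 genes for transcription factors, taken by name from the 770 gene probes of a cancer pathway panel on which mouse liver cancer cells had been measured after silencing of *Dusp4*. They were chosen as factors of the immediate early kind, and all 4 were found on the panel. Each lay above the detection floor in all 12 samples. The experiment held 4 groups of 3 biological replicates. AKT Cre/NRAS siRNA and AKT/NRAS siRNA were the lines given a pool of siRNA against *Dusp4*, and AKT Cre/NRAS SCR and AKT/NRAS SCR were the same lines given a non-targeting pool. The AKT/NRAS line came from a hepatocellular carcinoma (HCC) of a mouse whose liver had received myristoylated AKT, flanked by loxP sites, and mutant NRAS by hydrodynamic tail vein injection. AKT Cre/NRAS was made from it by transfecting Cre recombinase, which took out AKT and left NRAS as the driver, so all 4 groups carried mutant NRAS. Each genotype was thus 1 cell line, grown in DMEM and transfected repeatedly before RNA was taken, and a difference between the lines is a difference between 1 line and its derivative.

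Immediate early genes are transcribed within minutes of a growth signal, without new protein being made first. Signals through RAS, RAF, MEK and ERK reach them by phosphorylation of factors already bound at their promoters, and the proteins made from them then switch on later genes. FOS and JUN pair to form AP-1, which binds the site TGACTCA and takes part in liver regeneration and in liver cancer. KLF4 is a zinc finger factor of epithelia that is also used to reprogramme cells to pluripotency. ETS2 belongs to the ETS family and is itself phosphorylated by ERK. DUSP4 is a phosphatase of the nucleus that removes phosphate from ERK and related MAP kinases, and so it acts upstream of genes of this kind.

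The promoters of the 4 genes are shown because the genes shared 1 order of the groups, and the stretches below hold the matches found to the motifs searched. They run 5′ to 3′ on the strand of the gene, with 130 bases before the transcription start and 20 after it, from RefSeq on GRCm38.p6, and capitals mark the matches. They lie at chr12:85473760-85473909 (plus strand) for *Fos*, chr4:95052203-95052352 (minus strand) for *Jun*, chr4:55532456-55532605 (minus strand) for *Klf4* and chr16:95702277-95702426 (plus strand) for *Ets2*.
Fos: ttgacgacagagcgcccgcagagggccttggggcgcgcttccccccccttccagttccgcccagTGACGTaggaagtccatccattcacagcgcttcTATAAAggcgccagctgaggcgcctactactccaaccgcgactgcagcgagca
Jun: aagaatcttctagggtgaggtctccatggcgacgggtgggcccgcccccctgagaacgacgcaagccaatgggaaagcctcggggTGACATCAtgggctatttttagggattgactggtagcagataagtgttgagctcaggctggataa
Klf4: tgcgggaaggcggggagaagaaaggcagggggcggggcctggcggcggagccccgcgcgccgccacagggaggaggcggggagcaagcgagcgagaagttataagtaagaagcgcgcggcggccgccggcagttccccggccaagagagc
Ets2: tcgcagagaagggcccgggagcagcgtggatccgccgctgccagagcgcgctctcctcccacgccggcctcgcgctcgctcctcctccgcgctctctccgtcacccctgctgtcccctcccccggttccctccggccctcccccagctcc
In *Fos* the capitals are TGACGT, the core of the cAMP response element, from position -66, and a TATA box, TATAAA, from position -33, both counted from the transcription start. In *Jun* they are TGACATCA, an octamer like the AP-1 site through which AP-1 is known to act on *Jun* itself, from position -45. Each motif was sought on both strands in windows of 300 bases, with 250 bases before and 50 after the start. Among all 32851 such promoter windows, 7.51% held TGACGT, 13.6% held TATAAA and 3.62% held TGACATCA. The letters TGACTCA (AP-1, 5.2% of all windows), TGACGTCA (the full cAMP response element, which contains TGACGT, 1.79%), CCGGAAGT (ETS, 3.89%) and the CArG box (1.63%) were not in the windows of these genes. None of the letters searched were in the windows of *Klf4* and *Ets2*. A match here describes the letters of the promoter and not the binding of a factor, and a missing match says nothing of other stretches.

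The values below are normalized counts, that is barcode counts scaled to the positive controls by the authors and, here, to 15 of the 20 reference genes on the panel. The recovered counts totalled 641790 to 1081646 per sample, 252 to 293 of the 770 genes stood at the deposited floor of 20, and after scaling a common floor of 27.1 was set. *Dusp4*, the silenced gene, averaged 4023 ± 221 in AKT Cre/NRAS siRNA and 5556 ± 963 in AKT Cre/NRAS SCR (SD, n = 3 each). In the other line it averaged 370 ± 19.7 in AKT/NRAS siRNA and 1228 ± 43.8 in AKT/NRAS SCR (SD, n = 3 each). The siRNA lowered it by a log2 fold change of -1.73 in AKT/NRAS (limma adjusted p = 1.13e-06) and of -0.45 in AKT Cre/NRAS (adjusted p = 0.0178). In AKT Cre/NRAS the call was lost without siRNA replicate 1, siRNA replicate 3 or SCR replicate 2 (adjusted p up to 0.0677), and 1 of 8 scalings gave a change of 0.00098. The AKT Cre/NRAS SCR libraries stood apart. Their log2 ratio of *Rpl19*, a ribosomal protein gene, to *Polr2a*, the large subunit of RNA polymerase II, was 5.48, 6.36 and 6.88 in replicates 1, 2 and 3, against 4.72 to 5.03 in AKT Cre/NRAS siRNA, 3.86 to 3.92 in AKT/NRAS siRNA and 3.81 to 3.87 in AKT/NRAS SCR. Of the markers of liver epithelium on the panel, *Cdh1*, *Sox9* and *Spp1* were above the floor in every library, and *Prom1* was at the floor in all AKT/NRAS libraries. *Kdr* of endothelium and *Col1a2*, *Col3a1* and *Pdgfrb* of fibroblasts were at the floor in all 12. *Flt1*, an endothelial marker, averaged 454 in AKT Cre/NRAS siRNA and 303 in AKT Cre/NRAS SCR, and 974 in AKT/NRAS siRNA and 1322 in AKT/NRAS SCR. *Pdgfra*, a fibroblast marker, averaged 435 in AKT Cre/NRAS siRNA and 317 in AKT Cre/NRAS SCR, and 41.9 in AKT/NRAS siRNA and 55.7 in AKT/NRAS SCR. Summed over the 2 of 4 endothelial markers on the panel, levels ran from 387 to 495 in AKT Cre/NRAS siRNA, 239 to 369 in AKT Cre/NRAS SCR, 933 to 1007 in AKT/NRAS siRNA and 1260 to 1403 in AKT/NRAS SCR. Over all 5 fibroblast markers they ran from 415 to 513 in AKT Cre/NRAS siRNA, 269 to 382 in AKT Cre/NRAS SCR, 56.6 to 73.3 in AKT/NRAS siRNA and 80 to 104 in AKT/NRAS SCR. The 2 of 6 leukocyte markers on the panel summed to 1323 to 1790 over the 12 libraries. The 5 of 13 epithelial markers, in which *Spp1* had the most counts, summed to 107900 to 165143 in AKT Cre/NRAS libraries and to 29074 to 33528 in AKT/NRAS libraries. The part of these markers in the results was not tested.

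*Fos*, whose protein enters AP-1 as the partner of JUN, had 65.8, 53.3 and 46.6 normalized counts in the 3 AKT Cre/NRAS siRNA samples and 54.6, 50.1 and 42.4 in the AKT Cre/NRAS SCR samples. In AKT/NRAS siRNA it had 203.6, 184 and 179, and in AKT/NRAS SCR 266.6, 255 and 267. The siRNA and SCR samples of AKT Cre/NRAS overlapped, while the other neighbours in the order of the groups did not. These were low counts in AKT Cre/NRAS, where 54 to 59 barcodes were counted after siRNA and 38 to 58 after SCR, so that the 95% Poisson interval of a library, which covers counting error only, was 26.4% to 33.2% wide on each side.

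*Jun*, which encodes the other partner in AP-1 and can also pair with itself, had 209.8, 197 and 173 normalized counts in AKT Cre/NRAS siRNA and 176, 149 and 130.4 in AKT Cre/NRAS SCR. In AKT/NRAS siRNA it had 1327, 1284 and 1155, and in AKT/NRAS SCR 1641, 1512 and 1643. The lowest siRNA sample of AKT Cre/NRAS lay just under the highest SCR sample of that line, and there was no overlap elsewhere between neighbouring groups.

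*Klf4* had 1292, 1273 and 1268 normalized counts in AKT Cre/NRAS siRNA and 1031, 974 and 802 in AKT Cre/NRAS SCR. In AKT/NRAS siRNA it had 5698, 6460 and 6274, and in AKT/NRAS SCR 7953, 7486 and 7432. No groups overlapped for this epithelial factor. The AKT Cre/NRAS siRNA samples varied little (coefficient of variation 0.996%), whereas the AKT Cre/NRAS SCR samples had a coefficient of variation of 12.8%.

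*Ets2* had 2439, 2211 and 2144 normalized counts in AKT Cre/NRAS siRNA and 1804, 1559 and 1306 in AKT Cre/NRAS SCR. In AKT/NRAS siRNA it had 2501, 2473 and 2446, and in AKT/NRAS SCR 2967, 2943 and 2977. No groups overlapped, but the highest AKT Cre/NRAS siRNA sample and the lowest AKT/NRAS siRNA sample were nearly level. The spread of *Ets2* was widest in AKT Cre/NRAS SCR, with a coefficient of variation of 16%, against 0.597% in AKT/NRAS SCR.

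**Figure D1:**
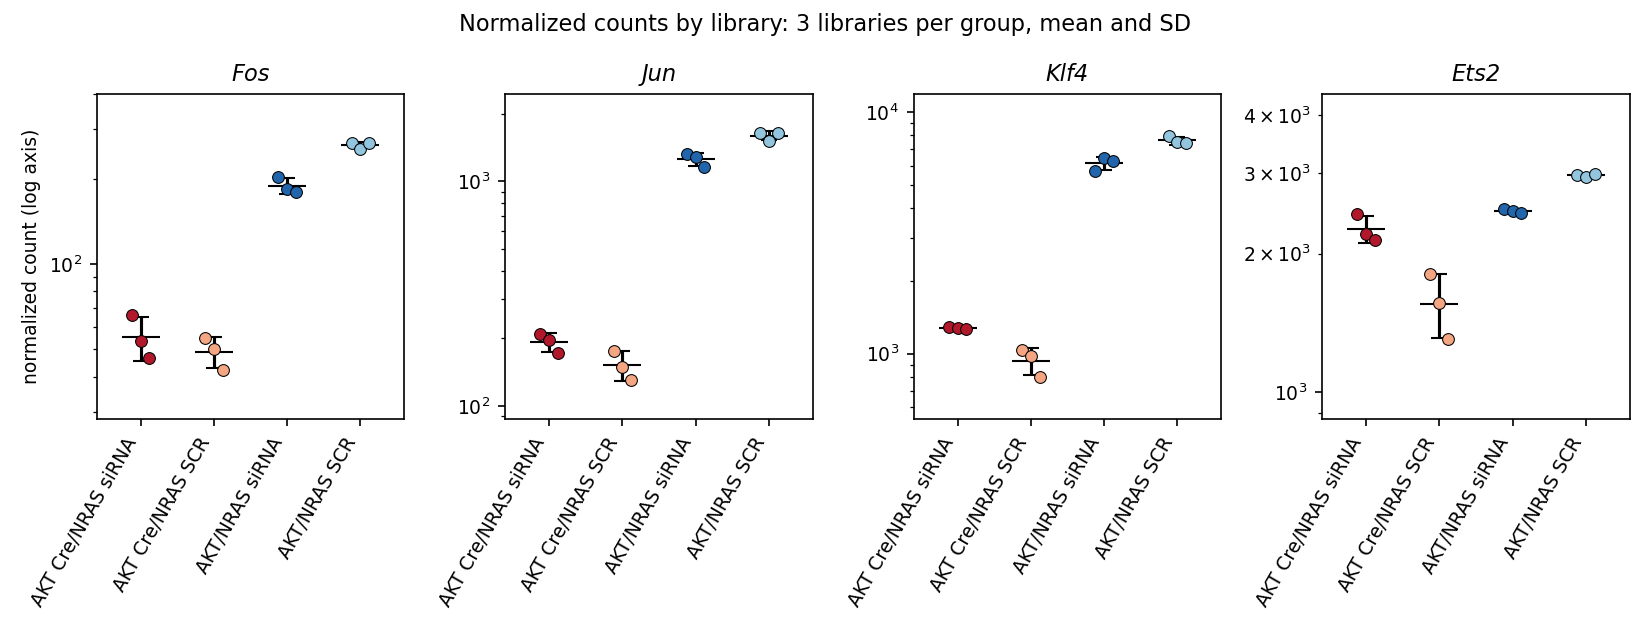
Normalized counts (log axis) of *Fos*, *Jun*, *Klf4* and *Ets2* in the 12 libraries, with 3 points per group and a bar for the mean with its SD. All 4 genes were highest in AKT/NRAS SCR and lowest in AKT Cre/NRAS SCR, and *Ets2* differed least between the lines.

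All 4 genes had the same order of group means, with AKT/NRAS SCR highest, then AKT/NRAS siRNA, AKT Cre/NRAS siRNA and AKT Cre/NRAS SCR. Of the 525 panel genes tested over the 12 samples, 137 (26.1%) had this order. With the deposited values 2 of the 4 genes kept it, as did 7 of the 525 (1.33%), and after re-centring the samples on their median gene 2 of the 4 did and 59 of the 525 (11.2%). *Polr2a* averaged 1359 in AKT Cre/NRAS siRNA and 824 in AKT Cre/NRAS SCR, and 2911 in AKT/NRAS siRNA and 3037 in AKT/NRAS SCR, which is the same order. In AKT Cre/NRAS SCR replicate 3, which had the highest *Rpl19* to *Polr2a* ratio, all 4 genes had their lowest value. Whether the state of these libraries had a part in the siRNA comparison was not tested. As these are bulk samples, fewer cells that express a gene and less RNA per cell cannot be told apart.

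In AKT Cre/NRAS, where NRAS drives the cells without AKT, *Ets2* and *Klf4* rose after *Dusp4* siRNA and *Fos* and *Jun* did not pass the test. *Ets2* rose by 0.55 on the log2 scale (standard error 0.12, limma adjusted p = 0.00610), a linear fold of 1.47, and *Klf4* by 0.46 (standard error 0.10, limma adjusted p = 0.00738), a fold of 1.37. For *Jun* the change was 0.35 with a standard error of 0.14 (limma adjusted p = 0.0629). *Jun* passed with the replicate number as a block (adjusted p = 0.0230), when all 4 groups were fitted together (adjusted p = 0.0103) and without SCR replicate 1 (adjusted p = 0.0138). For *Fos* it was 0.16 with a 95% interval of -0.19 to 0.51 (limma adjusted p = 0.421). Thus 2 of the 4 genes were called, against 45.9% of the 503 genes tested, with 40.6% called higher and 5.37% lower. The samples of the groups did not overlap for *Klf4* and *Ets2*, nor for 60% of all genes tested. A rise was therefore the usual result on the panel in this line, with a median log2 fold change of 0.23 over all genes tested. Relative to that median *Ets2* stood 0.29 to 0.34 above, *Klf4* 0.17 to 0.24 above, *Jun* 0.10 to 0.15 above and *Fos* 0.03 to 0.12 below over the 8 scalings run, while the median itself moved between -0.10 and 0.67. That median was 0.67 with the 5 reference genes ranked first, which include *Rpl19*, and -0.10 with re-centring. With reference genes chosen within the comparison, which leave *Rpl19* out, it was 0.02. *Ets2* passed the threshold in 6 of the 8 scalings, *Klf4* in 5, *Jun* in 2 and *Fos* in none. The siRNA effect had the same sign in all 8 for *Ets2* and *Klf4*, but *Fos* was higher in 5 and *Jun* in 7.

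In AKT/NRAS, where AKT was still present, all 4 genes fell after *Dusp4* siRNA. *Fos* fell by 0.48 on the log2 scale (standard error 0.07, limma adjusted p = 0.00816), *Jun* by 0.35 (standard error 0.06, adjusted p = 0.00916), *Klf4* by 0.31 (standard error 0.05, adjusted p = 0.00906) and *Ets2* by 0.26 (standard error 0.03, adjusted p = 0.00161). As linear folds, the siRNA levels were 0.719, 0.785, 0.805 and 0.835 of those in SCR. Of all 496 genes tested, 17.3% were called, 11.9% lower and 5.44% higher. The siRNA and SCR samples did not overlap for any of the 4 genes, nor for 34.7% of all genes tested. In the order of all fold changes only 1.82% of the genes tested lay below *Fos*, 4.85% below *Jun*, 6.06% below *Klf4* and 7.88% below *Ets2*. The calls held without any 1 library, with adjusted p values of 0.00295 to 0.0376 over the 4 genes. They were lost for all 4 genes when the 4 groups were fitted together (adjusted p = 0.0554, 0.0918, 0.0576 and 0.144 for *Fos*, *Jun*, *Klf4* and *Ets2*) and with the deposited values, which gave -0.14 for *Fos*, -0.01 for *Jun*, 0.02 for *Klf4* and 0.07 for *Ets2* with the panel median at 0.30. *Ets2* also lost its call under quantile normalization (-0.06, adjusted p = 0.125). Set against the panel median, the falls were nearly the same under the 8 scalings for *Fos* (-0.45 to -0.44) and *Jun* (-0.32 to -0.30), and ran from -0.29 to -0.22 for *Klf4* and from -0.23 to -0.08 for *Ets2*.

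**Figure D2:**
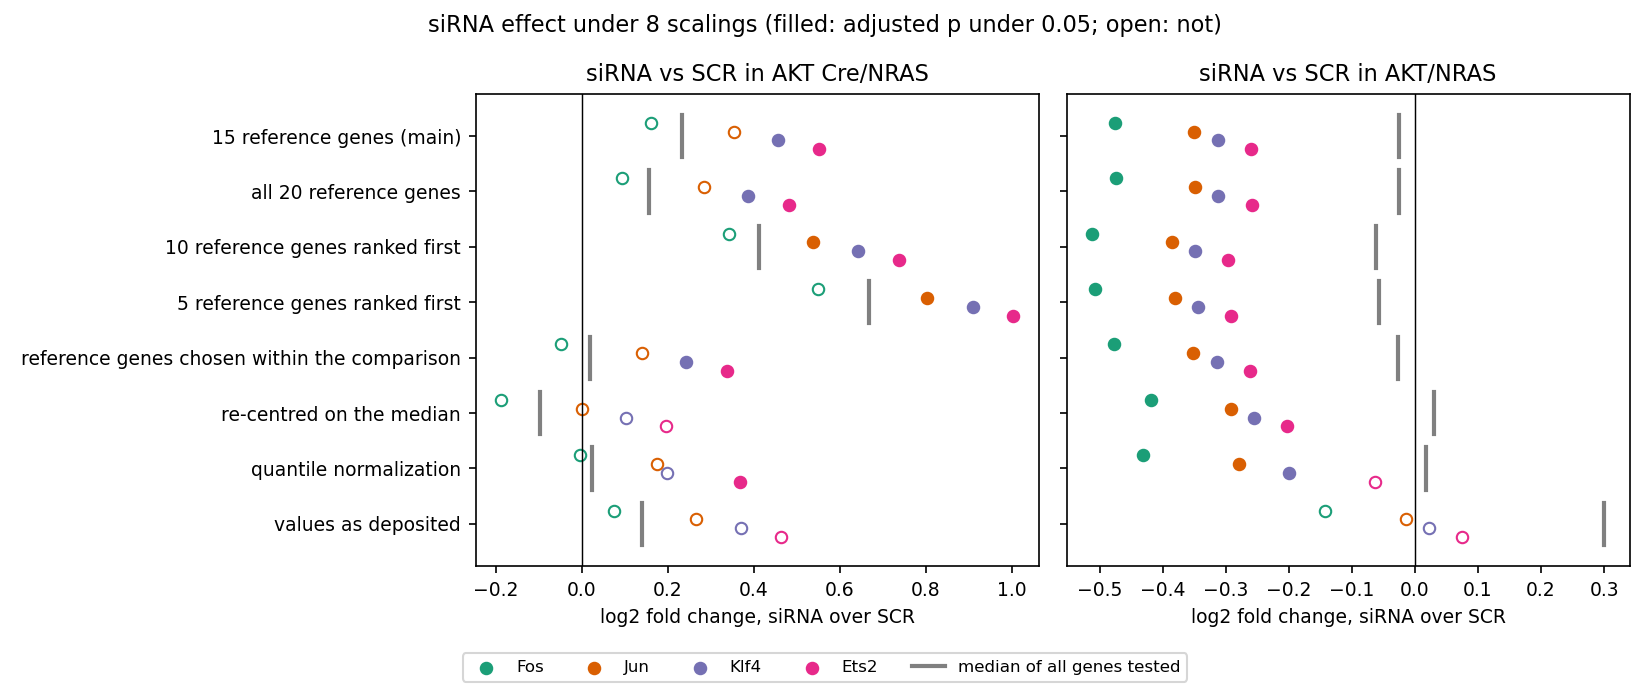
Log2 fold change of siRNA over SCR (x axis) for the 4 genes under 8 scalings (rows), in AKT Cre/NRAS on the left and AKT/NRAS on the right, with filled points where limma's adjusted p was under 0.05 and a grey bar at the median of all genes tested. In AKT/NRAS the 4 genes lay to the left of the panel median under every scaling, and in AKT Cre/NRAS *Jun*, *Klf4* and *Ets2* lay to its right and *Fos* to its left.

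The siRNA effect itself differed between the lines for all 4 genes, in a test that uses the same 12 libraries as the comparisons above and is not separate from them. The interaction term, the effect in AKT Cre/NRAS minus that in AKT/NRAS, was 0.81 for *Ets2* (standard error 0.13, limma adjusted p = 0.00190), 0.77 for *Klf4* (standard error 0.12, adjusted p = 0.00158), 0.70 for *Jun* (standard error 0.15, adjusted p = 0.00486) and 0.64 for *Fos* (standard error 0.18, adjusted p = 0.0155). These 4 calls stand against 45.3% of the 525 genes called, 40.6% of all genes with a positive term and 4.76% with a negative one, and a panel median of 0.25. The genes lay high in that distribution, with 84% of genes below *Fos*, 88.9% below *Jun*, 91.8% below *Klf4* and 95% below *Ets2*. Relative to the panel median the terms were 0.34 to 0.60 over the 7 scalings run, all above it. *Klf4* and *Ets2* passed in 6 of the 7, *Jun* in 5 and *Fos* in 4. With the deposited values none of the 4 passed, with re-centring *Fos* and *Jun* did not, and with quantile normalization *Fos* did not (adjusted p = 0.0902). The term draws on the AKT Cre/NRAS SCR libraries, whose *Rpl19* to *Polr2a* ratio was the highest. *Dusp4* itself had the largest term of the 525 genes (1.28, limma adjusted p = 0.000728), so the silencing was not equal in the lines. Its mean in AKT Cre/NRAS siRNA (4023) stayed above that in AKT/NRAS SCR (1228). Whether unequal silencing had a part in the terms of the 4 genes was not tested.

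The largest differences were between the lines. Under SCR, *Jun* was lower in AKT Cre/NRAS than in AKT/NRAS by -3.40 on the log2 scale (standard error 0.12, limma adjusted p = 4.4e-08), *Klf4* by -3.03 (standard error 0.10, adjusted p = 4.4e-08), *Fos* by -2.41 (standard error 0.12, adjusted p = 3.41e-07) and *Ets2* by -0.94 (standard error 0.11, adjusted p = 8e-05). AKT/NRAS thus held 10.5 times as much *Jun*, 8.18 times as much *Klf4*, 5.3 times as much *Fos* and 1.92 times as much *Ets2* as AKT Cre/NRAS. Most of the panel differed, with 76.9% of 515 genes called, 48% called lower, 28.9% called higher and 79.8% not overlapping, and the panel median was -0.22. Only 0.973% of genes lay below *Jun*, 1.95% below *Klf4* and 4.09% below *Fos*, but 22.4% below *Ets2*. *Fos*, *Jun* and *Klf4* passed under all 8 scalings, and *Ets2* in 7, the deposited values giving -0.43 (adjusted p = 0.152).

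Under siRNA, the lines were compared with libraries that did not include AKT Cre/NRAS SCR. *Jun* was lower in AKT Cre/NRAS than in AKT/NRAS by -2.70 on the log2 scale (limma adjusted p = 1.23e-07), *Klf4* by -2.26 (adjusted p = 1.94e-08) and *Fos* by -1.77 (adjusted p = 1.06e-05), and these passed in all 8 scalings and without any 1 library. *Ets2* differed by only -0.13 (standard error 0.05, limma adjusted p = 0.0494). Its call was lost without AKT Cre/NRAS siRNA replicate 2 or 3 or any AKT/NRAS siRNA replicate (adjusted p = 0.0912 to 0.144), and it passed in 4 of the 8 scalings. Here 74.5% of 522 genes were called, 37.9% lower and 36.6% higher, with 76.6% not overlapping and a panel median of -0.00053. AKT Cre/NRAS siRNA and AKT/NRAS siRNA were thus near each other in *Ets2* and far apart in *Fos*, *Jun* and *Klf4*.

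**Figure D3:**
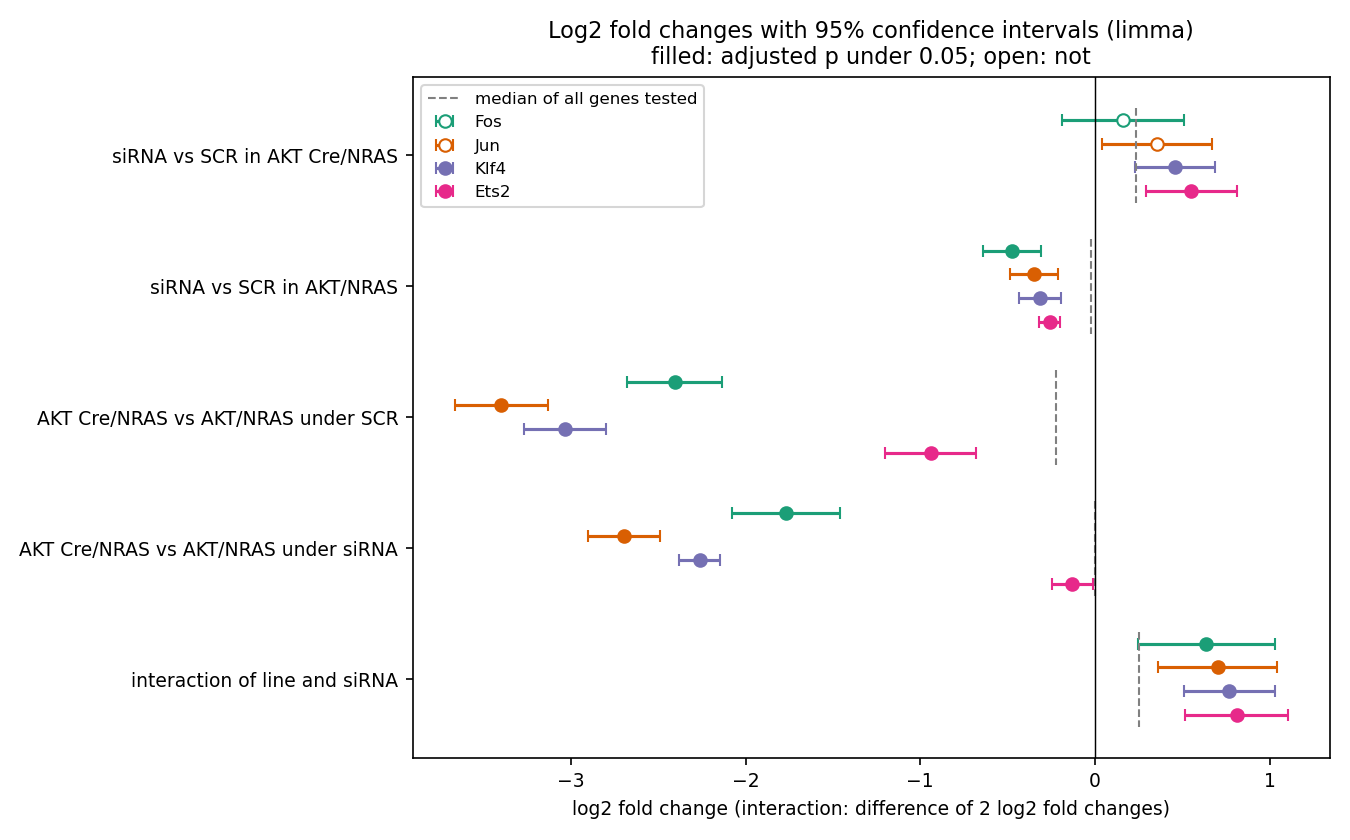
Log2 fold changes (x axis) of the 4 genes in the 5 comparisons, with 95% confidence intervals from limma, filled points where the adjusted p was under 0.05 and a dashed line at the median of all genes tested. The differences between the lines exceeded those after siRNA for *Fos*, *Jun* and *Klf4*.

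Ratios of 2 genes within a library do not depend on how libraries were scaled, and only their differences between groups are read here, since 2 probes need not count their targets equally well. The log2 ratio of *Klf4* to *Ets2* was -0.82 ± 0.08 in AKT Cre/NRAS siRNA and -0.73 ± 0.07 in AKT Cre/NRAS SCR, against 1.31 ± 0.11 in AKT/NRAS siRNA and 1.36 ± 0.05 in AKT/NRAS SCR (SD, n = 3 each). For *Jun* to *Ets2* it was -3.55 ± 0.08 in AKT Cre/NRAS siRNA and -3.36 ± 0.03 in AKT Cre/NRAS SCR, against -0.98 ± 0.09 in AKT/NRAS siRNA and -0.89 ± 0.06 in AKT/NRAS SCR (SD, n = 3 each). *Ets2* thus separated from *Klf4* and *Jun* between the lines by 2.09 to 2.57 on the log2 scale. *Fos* and *Jun*, the partners in AP-1, did not move as 1 unit either, since the ratio of *Fos* to *Jun* was higher in AKT Cre/NRAS than in AKT/NRAS by 0.98 under SCR and 0.92 under siRNA. None of these groups of 3 overlapped between the lines, and each gave an exact two-sided permutation p of 0.1, the smallest that 3 samples against 3 allow. Among single genes, 79.8% under SCR and 76.6% under siRNA did not overlap between the lines either. The share over ratios of other panel genes was not computed. After siRNA the ratios moved less than between the lines. *Fos* to *Ets2* was lower after siRNA than after SCR by 0.39 in AKT Cre/NRAS and by 0.22 in AKT/NRAS without overlap (exact permutation p = 0.1 for each). In AKT Cre/NRAS alone *Fos* to *Klf4* (-0.29) and *Jun* to *Ets2* (-0.20) also did not overlap, and in AKT/NRAS alone *Fos* to *Jun* (-0.13) did not. *Jun* to *Klf4* overlapped in both lines (exact permutation p = 0.4 and 0.8), as did *Klf4* to *Ets2*. Of the single genes tested, 60% in AKT Cre/NRAS and 34.7% in AKT/NRAS did not overlap between siRNA and SCR. Counting the ratios of *Fosl1* below, 8 ratios were set up in 4 comparisons each, and no p in so small a design can pass an adjustment.

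**Figure D4:**
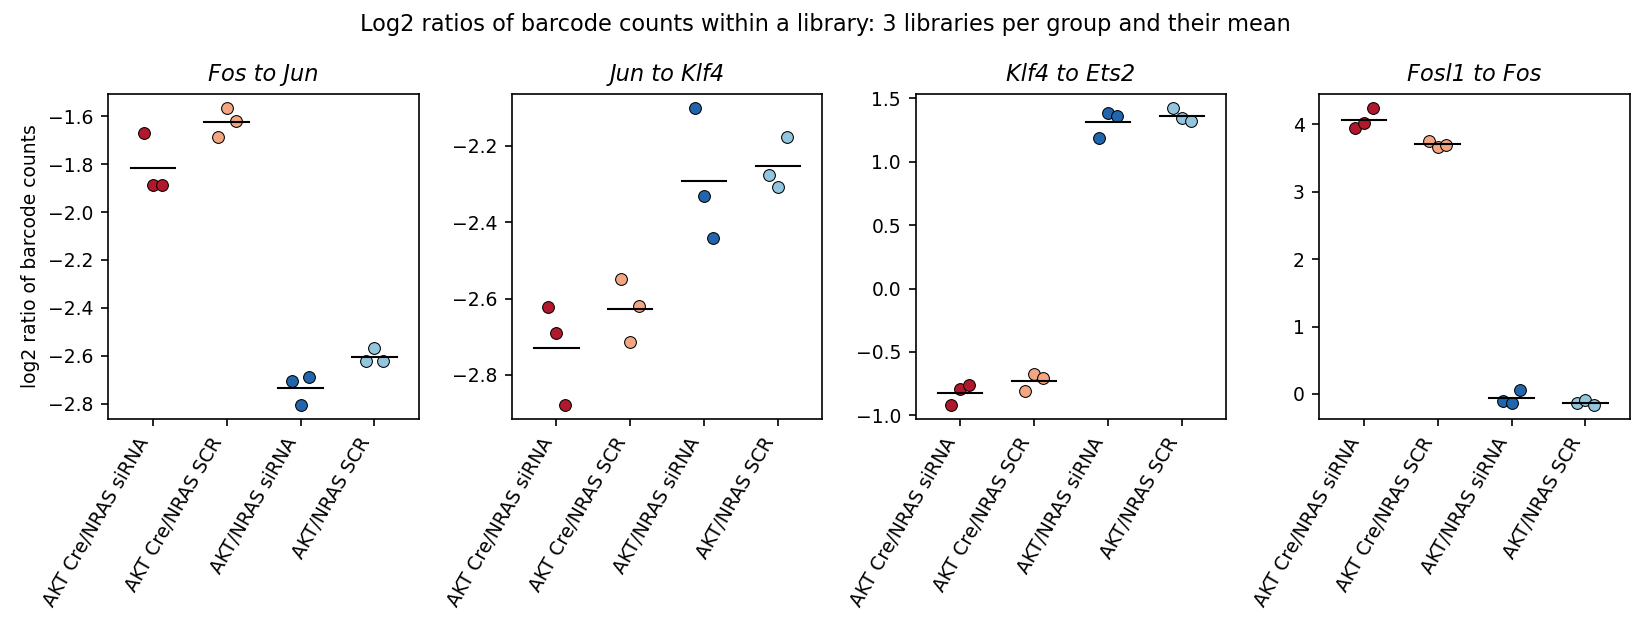
Log2 ratio of barcode counts of 2 genes within a library (y axis) for *Fos* to *Jun*, *Jun* to *Klf4*, *Klf4* to *Ets2* and *Fosl1* to *Fos*, with 3 points and the mean for each group. The lines were separated in all 4 ratios, most widely for *Fosl1* to *Fos*.

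*Fosl1*, which encodes FRA-1, was the 1 relative of *Fos* and *Jun* on the panel out of 7 sought, and it ran opposite to them between the lines. It averaged 919.7 ± 86.2 in AKT Cre/NRAS siRNA and 640.2 ± 92.6 in AKT Cre/NRAS SCR, against 181 ± 12.1 in AKT/NRAS siRNA and 240.5 ± 1.78 in AKT/NRAS SCR (SD, n = 3 each). It was higher in AKT Cre/NRAS than in AKT/NRAS by 1.40 on the log2 scale under SCR (limma adjusted p = 7.42e-06) and by 2.34 under siRNA (adjusted p = 2.25e-07), and did so in all 8 scalings. After siRNA it rose by 0.53 in AKT Cre/NRAS (adjusted p = 0.00738, passed in 5 of 8 scalings) and fell by 0.41 in AKT/NRAS (adjusted p = 0.00916, passed in 7 of 8). The log2 ratio of *Fosl1* to *Fos* was 4.07 in AKT Cre/NRAS siRNA and 3.70 in AKT Cre/NRAS SCR, against -0.06 in AKT/NRAS siRNA and -0.13 in AKT/NRAS SCR. Its difference between the lines was 3.83 under SCR and 4.13 under siRNA, and that of *Fosl1* to *Jun* was 4.81 and 5.05 (exact permutation p = 0.1 for each).

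Other immediate early genes did not share the low levels in AKT Cre/NRAS. Of 13 sought, 3 were on the panel and 2 were tested, *Myc*, a factor of growth and cell cycle entry, and *Nr4a1*, a nuclear receptor. *Myc* averaged 5776 ± 504 in AKT Cre/NRAS siRNA and 4377 ± 571 in AKT Cre/NRAS SCR, and 3070 ± 123 in AKT/NRAS siRNA and 3303 ± 25 in AKT/NRAS SCR (SD, n = 3 each). It was higher in AKT Cre/NRAS than in AKT/NRAS by 0.91 under siRNA (limma adjusted p = 8.59e-06, passed in 8 of 8 scalings) and by 0.40 under SCR (adjusted p = 0.00558, passed in 5 of 8, with a lower value in 2). *Nr4a1* was higher by 1.16 under siRNA (adjusted p = 7.88e-05, passed in 8 of 8 scalings) and by 0.53 under SCR (adjusted p = 0.000858, passed in 5 of 8, with values of 0.02 to 1.03). After siRNA both rose in AKT Cre/NRAS, *Myc* by 0.40 (adjusted p = 0.0175, passed in 4 of 8 scalings and lost without siRNA replicate 1 or SCR replicate 2) and *Nr4a1* by 0.36 (adjusted p = 0.0329, passed in 3 of 8 and lost without any siRNA replicate or SCR replicate 2), and neither passed in AKT/NRAS. Of the ETS family, 3 of 14 relatives were on the panel and only *Etv4* was tested. It averaged 614 ± 45 in AKT Cre/NRAS siRNA and 475 ± 67.6 in AKT Cre/NRAS SCR, whereas 2 of 3 samples of each AKT/NRAS group were at the floor, so that *Etv4* was higher (limma adjusted p = 4.23e-08 under SCR) where *Ets2* was lower. None of the 8 KLF and pluripotency factors sought were on the panel.

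Feedback inhibitors of ERK are phosphatases and Sprouty proteins that ERK signalling itself induces. Most genes listed under this name also ran opposite to *Fos*, *Jun* and *Klf4* between the lines, though not all of the listed phosphatases act mainly on ERK. Under SCR, 6 of 8 tested were higher in AKT Cre/NRAS and 2 lower (28.9% and 48% of all genes), with a median log2 fold change of 1.51 beside -0.22 for all genes tested. Under siRNA again 6 were higher and 2 lower (36.6% and 37.9% of all genes), with a median of 1.80 beside -0.00053. *Dusp4* was higher by 2.16 (limma adjusted p = 8.98e-07), *Spry2* by 2.07 (adjusted p = 2.16e-07) and *Spry4* by 1.62 (adjusted p = 4.39e-06) under SCR. The 2 lower genes there were *Dusp10*, a phosphatase of JNK and p38 (-1.01, adjusted p = 1.64e-06), and *Dusp8* (-1.31, adjusted p = 3.09e-05). After siRNA in AKT Cre/NRAS, 4 rose, 1 (*Dusp4*) fell and 3 did not pass (40.6% of all genes rose and 5.37% fell), with a median of 0.26 beside 0.23. *Dusp5*, a nuclear phosphatase of ERK, rose by 0.67 (adjusted p = 0.00355) there. *Dusp4* is the target of the siRNA, so its fall in either line came from the design. It still enters the counts and medians of this list in every comparison. In AKT/NRAS, 3 fell, *Dusp4*, *Dusp10* by 0.41 (adjusted p = 0.00161) and *Dusp5* by 0.50 (adjusted p = 0.0345, lost without siRNA replicate 2 or 3 or SCR replicate 1 or 3), and 5 did not pass (11.9% of all genes fell), with a median of -0.10 beside -0.03.

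The kinases upstream of the factors were called at shares near those of the panel. Under SCR 1 of 10 tested stood higher in AKT Cre/NRAS and 6 stood lower (28.9% and 48% of all genes), with a median of -0.35 beside -0.22. Under siRNA 3 were higher and 5 lower (36.6% and 37.9% of all genes), with a median of -0.06 beside -0.00053. *Mapk3*, which encodes ERK1, was lower by -1.02 under SCR (limma adjusted p = 0.000177) and by -0.53 under siRNA (adjusted p = 1.51e-06), and *Braf* by -1.12 (adjusted p = 8.27e-06) and -0.67 (adjusted p = 0.000579). After siRNA 4 kinases rose, 1 fell and 5 did not pass in AKT Cre/NRAS, where 40.6% of all genes rose and 5.37% fell, with a median of 0.22 beside 0.23. *Mapk9*, which encodes the JUN kinase JNK2, rose by 0.47 there (adjusted p = 0.00656), and *Mapk8*, which encodes JNK1, fell by 0.35 (adjusted p = 0.0257, lost without any siRNA replicate or SCR replicate 2). In AKT/NRAS the median of the kinases was -0.07 beside -0.03, and neither *Mapk3* (-0.03, adjusted p = 0.586) nor *Mapk9* (-0.04, adjusted p = 0.631) passed.

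Genes known to carry AP-1 sites were mostly higher in the line with less *Fos* and *Jun*. Under SCR 7 of 10 tested were higher in AKT Cre/NRAS, 2 lower and 1 not called (28.9% and 48% of all genes were higher and lower), with a median of 1.06 beside -0.22. Under siRNA 8 were higher, none lower and 2 not called (36.6% and 37.9% of all genes were higher and lower), with a median of 0.86 beside -0.00053. *Hmga2*, an architectural chromatin factor, was higher by 3.78 (limma adjusted p = 3.1e-09) and *Spp1*, which encodes osteopontin, by 3.20 (adjusted p = 1.74e-07) under SCR, while *Fn1*, which encodes fibronectin, averaged 3924 in AKT Cre/NRAS SCR and 7760 in AKT/NRAS SCR (adjusted p = 0.000163). *Spp1* also stands among the epithelial markers above. *Csf2* and *Mmp9* were at the floor in all AKT/NRAS libraries, so between the lines they could not have come out lower in AKT Cre/NRAS. Both are among the 7 and the 8 called higher, and both enter these medians. Their fitted differences moved with the scaling, from 1.21 to 2.38 for *Csf2* and from 0.23 to 1.19 for *Mmp9* under SCR. After siRNA in AKT Cre/NRAS 5 rose, 1 fell and 4 did not pass, near the 40.6% and 5.37% of all genes that rose and fell, with a median of 0.24 beside 0.23, and *Fn1* rose by 0.86 (adjusted p = 0.00333) and *Tgfb1*, a growth factor, by 0.76 (adjusted p = 0.00474). The 1 that fell was *Csf2*, which encodes the cytokine GM-CSF (-0.76, adjusted p = 0.0258, lost without any siRNA replicate or SCR replicate 2). In AKT/NRAS 1 of 8 tested rose, *Spp1* by 0.28 (adjusted p = 0.0167, lost without siRNA replicate 3), 2 fell and 5 did not pass (5.44% and 11.9% of all genes rose and fell), and *Vegfa*, a growth factor for vessels, was among those that fell, by 0.22 (adjusted p = 0.00816, with a positive value in 1 of 8 scalings). The other was *Tgfb1* (-0.20, adjusted p = 0.0479, lost without any siRNA replicate or SCR replicate 2 or 3).

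The panel genes whose profiles over the 4 groups came nearest to each of the 4 were found from the centred group means of log2 values, over 446 genes above the floor in all 12 samples, with the root mean square difference as the measure. Among those nearest to *Fos* were *Cdkn1c* (0.14) and *Tmprss2* (0.19), and nearest to *Jun* were *Angpt1* (0.12), *Bmp2* (0.14) and *Flnc* (0.15). For *Klf4* they were *Mtor* (0.09), *Ltbp1* (0.12) and *Angpt1* (0.15), so *Angpt1* stood near both. For *Ets2* they were *Runx1* (0.04), *Capn2* (0.05) and *Msh6* (0.06). *Runx1* had geometric means of 629 in AKT Cre/NRAS siRNA and 423 in AKT Cre/NRAS SCR, and of 682 in AKT/NRAS siRNA and 871 in AKT/NRAS SCR. Among the 4 genes themselves, *Jun* and *Klf4* were closest (0.20), *Fos* was 0.30 from *Klf4* and 0.49 from *Jun*, and *Ets2* was 0.79 from *Fos*, 1.06 from *Klf4* and 1.26 from *Jun*. These are descriptions of 4 means each, and many genes lay nearer to *Jun* and *Klf4* than *Ets2* did.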

How the data were processed

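Total RNA of 12 cultures, 3 biological replicates in each of 4 groups, had been hybridised to the nCounter Mouse PanCancer Pathways panel and processed by the authors in nSolver. Each deposited value is the signal of a gene probe, that is its barcode count times 1 factor per sample set by the positive controls, with values at or under 20 set to 20. Of 5991 values above this floor, 100% came out as whole counts within a tolerance of 0.05. No count model was fitted, because counts at the floor are hidden. The columns were assigned to samples by the run number in the labels.

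Reference genes were chosen here with geNorm over all 12 samples, since the methods state an automatic choice that minimises pairwise variation and the deposited values carry none. This kept 15 of 20, with *Rpl19* among those kept and *Polr2a* among those left out. Scaled values under 27.1, the highest floor of any sample, were set to it, and a gene at that floor in all samples compared was left out. The test was limma 3.58.1 (R 4.3.3) on log2 of the value plus 1, using lmFit and eBayes with an intensity trend, Benjamini-Hochberg adjustment over all genes tested and a threshold of 0.05, using only the samples of a comparison and all 12 for the interaction. All adjusted p values are from limma. The script was tested on simulated data. Exact permutation tests used scipy 1.17.1 in Python 3.11.15, and figures matplotlib 3.10.9. Alternatives were 7 other scalings, the pseudocount, the filter, the adjustment, the variance trend, a single fit, the replicate block and leaving out each library.

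The members and lists were chosen with earlier results of these data known. The genes named are the 4 members, *Dusp4*, *Rpl19*, *Polr2a*, up to 4 of each list with the smallest p past the threshold in a comparison, cell type markers and the 3 genes nearest to each member. *Mapk8* and *Csf2*, each the 1 gene of its list that fell, and *Dusp8*, lower in AKT Cre/NRAS, were added after their values were seen. A few genes that this rule names are not reported here. Samples with the same replicate number deviated together in the AKT Cre/NRAS siRNA comparison (correlation of deviations from the group means 0.19, 0.10 and 0.18 for numbers 1, 2 and 3). In the AKT/NRAS siRNA comparison (-0.07 to 0.04) and between the lines under SCR (-0.03 to 0.005), no number correlated best with itself. Between the lines under siRNA numbers 1 and 3 did (0.21 and 0.17), and number 2 did not (0.04).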

Additional observations from a re-analysis of the deposited data

Results flagged for a closer look

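The response to *Dusp4* siRNA differed between AKT Cre/NRAS and AKT/NRAS for all 4 genes when the difference itself was tested. The effect in AKT Cre/NRAS minus that in AKT/NRAS was 0.81 for *Ets2*, 0.77 for *Klf4*, 0.70 for *Jun* and 0.64 for *Fos* on the log2 scale, each past the threshold of limma's interaction term, as did 45.3% of the panel. *Klf4* and *Ets2* were higher after siRNA in AKT Cre/NRAS and lower in AKT/NRAS, and *Fos* and *Jun* passed only in AKT/NRAS. The silencing was not equal in the lines, as *Dusp4* changed by -1.73 in AKT/NRAS and by -0.45 in AKT Cre/NRAS. Whether this had a part was not tested.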

How the results depend on the processing

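In AKT Cre/NRAS the count of the 4 genes called after siRNA, 2, was 0 with the deposited values, re-centring or no filter on low values, and 1 with quantile normalization or Benjamini-Yekutieli adjustment. The log2 fold change of *Fos* turned to -0.19 with re-centring, -0.0043 with quantile normalization and -0.0490 with reference genes chosen within the comparison, and that of *Jun* to -0.00069 with re-centring. In AKT/NRAS the count of 4 was 0 with the deposited values, which turned *Klf4* to 0.0225 and *Ets2* to 0.0750, 0 in a single fit over all 4 groups, 2 with no filter, 1 with Benjamini-Yekutieli adjustment and 3 with quantile normalization, where *Ets2* lost its call. For the interaction the count of 4 was 0 with the deposited values, 2 with re-centring, and 3 with quantile normalization or Benjamini-Yekutieli adjustment, where *Fos* lost its call (adjusted p = 0.0902 and 0.106). Between the lines the counts did not move beyond 3 to 4 under any alternative run, and each log2 fold change of these genes kept its sign. The causes were not tested, except that Benjamini-Yekutieli adjustment is stricter and that no filter adds genes at the floor to the genes tested.

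Over all genes tested, the 231 calls in AKT Cre/NRAS became 1 with the deposited values, 90 with quantile normalization, 100 with reference genes chosen within the comparison, 56 with no filter and 70 with Benjamini-Yekutieli adjustment, and 99 to 297 with a library left out. The 86 calls in AKT/NRAS became 290 with the deposited values (287 of them higher), 23 in a single fit, 45 with no filter and 10 with Benjamini-Yekutieli adjustment, and 39 to 92 with a library left out. The 238 calls of the interaction became 32 and 101 with the deposited values and Benjamini-Yekutieli adjustment. With each library left out in turn, the 4 genes gave 2 to 3 calls in AKT Cre/NRAS, 4 in AKT/NRAS, 4 between the lines under SCR, 3 to 4 under siRNA and 4 for the interaction. With the replicate block the counts were 3 in AKT Cre/NRAS, where *Jun* gained its call, and 4 in the other comparisons, and the block changed no other call of the 4 genes. In AKT Cre/NRAS, where *Fos* had 38 to 59 barcode counts, the limma interval of its siRNA effect ran from -0.19 to 0.51 (standard error 0.157). For *Jun*, with 188 to 200 counts after siRNA and 117 to 187 after SCR, the standard error was 0.142. Whether counting depth had a part in the result for *Fos* was not tested.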
